A study of Mus musculus with 12 samples.

Results

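Calb2, Asic4, Rab3c, Shisa6, Brinp2, Astn1, Nrxn3, Vat1l and AI593442 are 9 of the 24964 genes counted in mouse uterus at mid-pregnancy. They were chosen by name, as genes best known from neurons that had changed in uteri overexpressing an isoform of the progesterone receptor (PGR). The choice used the measured difference of each overexpression group from control. Those 2 differences are therefore a description: adjusted p-values and counts in them only locate the threshold that the choice used, and support nothing. Against the description under which the genes were grouped, Nrxn3 passed the threshold in neither overexpression group when all 12 libraries were used. The other 8 genes passed it in at least 1 group, each time as higher.

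The series holds 12 RNA-seq libraries of uterine tissue taken at 13.5 days post coitum (dpc), 4 in each of 3 groups. The PGR-A OE group was Myh11Cre; LSLPGRA/+ and overexpressed the shorter receptor isoform, PGR-A. The PGR-B OE group was Myh11Cre; LSLPGRB/+ and overexpressed the full-length isoform, PGR-B. The control group was Myh11Cre with no overexpression allele, so the Cre driver was common to all 3 groups. Myh11 encodes the smooth muscle myosin heavy chain, and Cre under its control is active in smooth muscle, vessel walls included, while the RNA came from uterine tissue with all its cell types. In such bulk samples, a change in the number of cells of a type and a change in RNA per cell cannot be told apart.

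Progesterone holds the muscle wall of the pregnant uterus, the myometrium, in a quiet state through the isoforms of PGR, which bind DNA and recruit cofactors. The uterus also holds nerve fibres of the autonomic and sensory systems, whose cell bodies lie outside it in ganglia, so that most transcripts of those neurons are not in the tissue. Many genes named for neurons have products of wide use: calcium-binding proteins, vesicle GTPases, channel subunits and adhesion proteins. In cells outside the nervous system the repressor REST is known to hold many neuronal genes silent.

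The RefSeq promoter table of GRCm38.p6 matched 5 of the 9 genes, with 7 windows of 300 bases, each from 250 bases before to 50 bases after a start site. The 4 windows printed here belong to the genes whose profiles were most alike by the likeness measure given below: Astn1 and Vat1l, both close to Brinp2, and Rab3c with AI593442. Each reads 5′ to 3′ on the strand of its gene, and capitals mark CpG dinucleotides. The Astn1 window is chr1:158362054-158362353 on the plus strand, the Vat1l window is chr8:114205390-114205689 on the plus strand, the Rab3c window is chr13:110280157-110280456 on the minus strand and the AI593442 window is chr9:52679388-52679687 on the minus strand.
Astn1: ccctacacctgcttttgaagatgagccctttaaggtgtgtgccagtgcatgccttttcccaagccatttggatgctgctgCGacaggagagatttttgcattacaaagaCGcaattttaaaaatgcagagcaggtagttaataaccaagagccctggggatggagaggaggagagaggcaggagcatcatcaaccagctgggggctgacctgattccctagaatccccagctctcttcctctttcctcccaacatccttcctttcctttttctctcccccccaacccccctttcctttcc
Vat1l: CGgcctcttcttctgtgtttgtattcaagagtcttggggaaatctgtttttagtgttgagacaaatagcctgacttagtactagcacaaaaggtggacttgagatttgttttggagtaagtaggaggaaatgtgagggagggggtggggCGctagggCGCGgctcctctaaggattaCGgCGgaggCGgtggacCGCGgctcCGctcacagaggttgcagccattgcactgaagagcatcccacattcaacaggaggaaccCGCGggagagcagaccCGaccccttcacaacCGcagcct
Rab3c: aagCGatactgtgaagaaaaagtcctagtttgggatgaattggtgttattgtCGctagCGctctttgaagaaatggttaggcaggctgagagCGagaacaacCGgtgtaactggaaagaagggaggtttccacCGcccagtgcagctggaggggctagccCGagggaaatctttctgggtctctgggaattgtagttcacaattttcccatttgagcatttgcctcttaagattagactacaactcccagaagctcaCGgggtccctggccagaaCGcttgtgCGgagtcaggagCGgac
AI593442: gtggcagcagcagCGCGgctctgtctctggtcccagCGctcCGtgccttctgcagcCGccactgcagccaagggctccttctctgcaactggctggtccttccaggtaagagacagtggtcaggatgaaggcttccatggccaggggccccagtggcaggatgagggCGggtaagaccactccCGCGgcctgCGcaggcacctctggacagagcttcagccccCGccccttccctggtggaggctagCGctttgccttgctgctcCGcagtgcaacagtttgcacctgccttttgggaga
Although Astn1 and Vat1l were close by that measure of likeness, their windows differ in base composition. The Astn1 window holds 2 CpG dinucleotides and the Vat1l window 14, against a median of 7 over the 32851 windows of the table. The Rab3c and AI593442 windows, of 11 and 12 CpG dinucleotides, are alike in this count. GC content was 50.7% in the Astn1 window, 54.3% in the Vat1l window, 50.7% in the Rab3c window and 64.7% in the AI593442 window, against a median of 52.7% over all windows. In each of the 4 windows the RefSeq start site lies inside the gene model of the GENCODE annotation, which begins further upstream.

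The 7 windows were searched on both strands for letters bound by receptors and repressors that bear on these genes. The full palindrome of steroid receptors, GNACANNNTGTNC, was in none of the 7 windows and in 0.475% of all windows. Its single arm AGAACA, bound by PGR as part of the palindrome, was in the Rab3c window, starting 156 bases before the start site, and in the first of 3 Nrxn3 windows, 99 bases before it; 19.0% of all windows hold it. The letters TTCAGCACC and GGACAGC, from the left and right parts of the REST element, were in none of the 7 windows, against 0.371% and 6.56% of all windows. The TATA box letters TATAAA, held by 13.6% of all windows, were also in none, nor was the CArG box of serum response factor, held by 1.63%. None of the motifs searched overlaps another in these 7 windows. A match is a run of letters and not a measured site, and the absence of one says only that the letters are not in these windows.

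Depth was even, at 31872534 to 33078483 counts per library, and 15561 genes passed the filter on low counts, all 9 among them. That filter asked for 4 libraries at 0.309 CPM or more. Shisa6 met it only through PGR-B OE, where all 4 libraries reached that level and none of the other 8 did. Calb2, Asic4, Rab3c and Vat1l reached it in all 8 overexpression libraries and in 3 of 4 control libraries, and the other 4 genes in all 12. Pgr itself, counted without regard to isoform or transgene, averaged 199.7 ± 38.5 CPM (counts scaled to the depth of each library) in PGR-A OE, 223 ± 26.5 CPM in PGR-B OE and 121 ± 16.5 CPM in control (SD, n = 4 each). Each overexpression group lay wholly above control (exact two-sided permutation test, p = 0.0286 each, the smallest possible with 4 against 4), and PGR-B OE and PGR-A OE overlapped (p = 0.371). On principal component 1 (24.4% of the variance) PGR-A OE replicate 4 stood at 51.84 and the other 11 libraries between -22.77 and 8.88. For Nrxn3, Gsg1l, Pappa2 and Npy a log2 change without that library is given as well. Group means, marker sums and profile likenesses all include it. No label says that replicates came from separate animals, so p-values measure the spread of these libraries only, which may in part be technical.

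The vesicle gene of the group is Rab3c, which encodes a small GTPase of synaptic and secretory vesicles. Rab3c stood at 5.56, 3.22, 3.60 and 3.44 CPM in PGR-A OE replicates 1 to 4, at 1.65, 2.81, 2.77 and 3.21 CPM in PGR-B OE, and at 0.516, 0.286, 0.884 and 0.328 CPM in control. Every overexpression library lay above every control library, and every PGR-B OE library lay below every PGR-A OE library, with the highest of the first at 3.21 CPM and the lowest of the second at 3.22 CPM. The log2 change was 2.97 ± 0.35 (SE) in PGR-A OE and 2.37 ± 0.35 in PGR-B OE, each against control. Rab3c spans bases 110054187 to 110280996 of chromosome 13 on the minus strand (GRCm38, GENCODE).

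Asic4 and Shisa6 encode membrane proteins tied to ion channels. Asic4 belongs to the acid-sensing ion channels but does not by itself form a proton-gated channel. Asic4 was at 1.25, 1.11, 0.610 and 1.76 CPM in PGR-A OE, at 2.21, 2.30, 1.35 and 1.50 CPM in PGR-B OE and at 0.355, 0.223, 0.410 and 0.357 CPM in control. Both overexpression groups lay clear of control, and they overlapped each other. Its log2 change against control was 1.81 ± 0.34 in PGR-A OE and 2.44 ± 0.34 in PGR-B OE. Asic4 lies on chromosome 1 from 75450436 to 75474343 on the plus strand, where an exon overlaps the antisense model Gm37264. The use of strand in the counting is not given in the sources used here, so reads of the Asic4 overlap cannot be told apart from antisense reads.

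Shisa6 encodes an auxiliary subunit that holds AMPA-type glutamate receptors at synapses. Its counts were 7, 4, 2 and 8 reads in PGR-A OE, 73, 61, 53 and 49 reads in PGR-B OE and 1, 4, 2 and 5 reads in control. Only PGR-B OE stood apart, with no overlap with either of the other groups, which overlapped each other at a few reads per library. In CPM the means were 0.156 ± 0.0780 in PGR-A OE, 1.83 ± 0.284 in PGR-B OE and 0.0929 ± 0.0544 in control. Shisa6 thus had a log2 change against control of 0.72 ± 0.48 in PGR-A OE and 4.23 ± 0.40 in PGR-B OE, a 19.7-fold ratio of group means in PGR-B OE. The gene spans bases 66211725 to 66525964 of chromosome 11 on the minus strand.

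Calb2 encodes calretinin, a cytosolic calcium-binding protein of interneurons that also marks mesothelium, the lining of the peritoneal cavity and its organs. Calb2 had 2.04, 1.17, 0.899 and 0.587 CPM in PGR-A OE, 9.29, 4.40, 4.48 and 4.07 CPM in PGR-B OE and 0.355, 0.318, 0.568 and 0.208 CPM in control. The 3 groups did not overlap: PGR-B OE was highest, PGR-A OE lay between, and control was lowest, with the lowest PGR-A OE library close to the highest control library. PGR-B OE replicate 1 was far above the rest of its group. The log2 change against control was 1.69 ± 0.45 in PGR-A OE and 3.93 ± 0.45 in PGR-B OE. Calb2 lies on chromosome 8 from 110137502 to 110168210 on the minus strand.

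Brinp2 and Astn1 encode relatives that share a membrane-attack-complex and perforin type domain. Astrotactin 1, the product of Astn1, serves the migration of young neurons along glial fibres, and Brinp2 is a neural gene whose family responds to bone morphogenetic protein and retinoic acid. Brinp2 was at 9.12, 9.50, 14.1 and 19.3 CPM in PGR-A OE, at 5.31, 4.18, 6.12 and 6.36 CPM in PGR-B OE and at 3.42, 3.72, 4.58 and 1.82 CPM in control. PGR-A OE lay clear above both other groups, and PGR-B OE overlapped control. Astn1 was at 4.69, 4.45, 7.45 and 9.99 CPM in PGR-A OE, at 4.19, 2.84, 4.22 and 5.57 CPM in PGR-B OE and at 1.64, 1.81, 2.12 and 1.43 CPM in control. For Astn1 both overexpression groups lay clear of control and overlapped each other. Against control, the log2 change in PGR-A OE was 1.94 ± 0.30 for Brinp2 and 1.92 ± 0.28 for Astn1. In PGR-B OE it was 0.70 ± 0.29 for Brinp2 and 1.26 ± 0.28 for Astn1.

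The genes Brinp2 and Astn1 are direct neighbours on chromosome 1, set head to head on opposite strands. Brinp2 runs from 158245269 to 158356326 on the minus strand and Astn1 from 158362273 to 158691781 on the plus strand, which leaves 5946 bases between their starts. The ratio of Astn1 to Brinp2, each per kilobase of gene length, was 0.292, 0.266, 0.299 and 0.293 in PGR-A OE, 0.448, 0.386, 0.391 and 0.497 in PGR-B OE and 0.273, 0.277, 0.262 and 0.447 in control. The pair thus kept nearly the same ratio in all 4 PGR-A OE libraries while the level of each gene varied about 2-fold among them. Control replicate 4, whose ratio lay with those of PGR-B OE, was the control library with the lowest Brinp2.

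**Figure D1:**
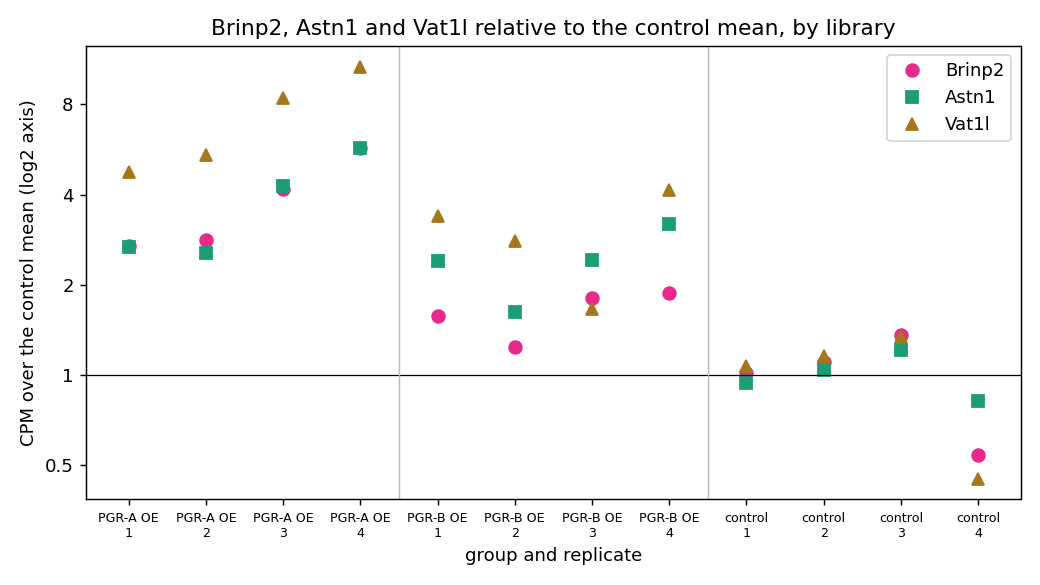
Level of Brinp2 (circles), Astn1 (squares) and Vat1l (triangles) in each library over the mean of the control libraries, on a log2 axis, for PGR-A OE, PGR-B OE and control. In PGR-A OE all 3 genes were higher in replicates 3 and 4 than in replicates 1 and 2, and in PGR-B OE each Brinp2 point lies below the Astn1 point of its library.

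Vat1l, a relative of the synaptic vesicle protein VAT1 whose own function is poorly known, marks some large projection neurons of the human cortex. Vat1l was at 1.57, 1.80, 2.79 and 3.55 CPM in PGR-A OE, at 1.12, 0.925, 0.548 and 1.38 CPM in PGR-B OE and at 0.355, 0.382, 0.442 and 0.149 CPM in control. The 3 groups did not overlap, with PGR-A OE highest and control lowest. Its log2 change against control was 2.86 ± 0.39 in PGR-A OE and 1.58 ± 0.40 in PGR-B OE. Vat1l lies on chromosome 8 from 114205612 to 114374071 on the plus strand, 4037401 bases from Calb2.

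AI593442 is a protein-coding mouse gene with a provisional symbol, and no role is given for it here. AI593442 was at 12.03, 8.48, 13.9 and 13.5 CPM in PGR-A OE, at 4.16, 4.69, 10.7 and 7.99 CPM in PGR-B OE and at 0.677, 1.05, 2.34 and 0.893 CPM in control. Each overexpression group lay clear above control and the overexpression groups overlapped each other. The log2 change against control was 3.27 ± 0.40 in PGR-A OE and 2.47 ± 0.40 in PGR-B OE. The gene covers 6739 bases of chromosome 9, from 52673042 to 52679780 on the minus strand, the shortest span of the 9.

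Nrxn3 encodes a neurexin, a presynaptic adhesion protein made from several promoters and in many splice forms. Nrxn3 was at 1.37, 0.992, 1.09 and 5.46 CPM in PGR-A OE, at 3.83, 5.11, 3.13 and 5.32 CPM in PGR-B OE and at 3.84, 3.37, 3.16 and 4.38 CPM in control. Within PGR-A OE, 3 libraries lay below every control library and replicate 4 lay above all of them, while PGR-B OE overlapped control. The log2 change against control was -0.72 ± 0.46 in PGR-A OE and 0.24 ± 0.46 in PGR-B OE. Without PGR-A OE replicate 4 the Nrxn3 log2 change in PGR-A OE versus control was -1.68 (edgeR, adjusted p = 0.00741), so that Nrxn3 then passed the threshold as lower. Nrxn3 spans 1612060 bases of chromosome 12, from 88722876 to 90334935 on the plus strand, and an exon overlaps the antisense model Gm37980.

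**Figure D2:**
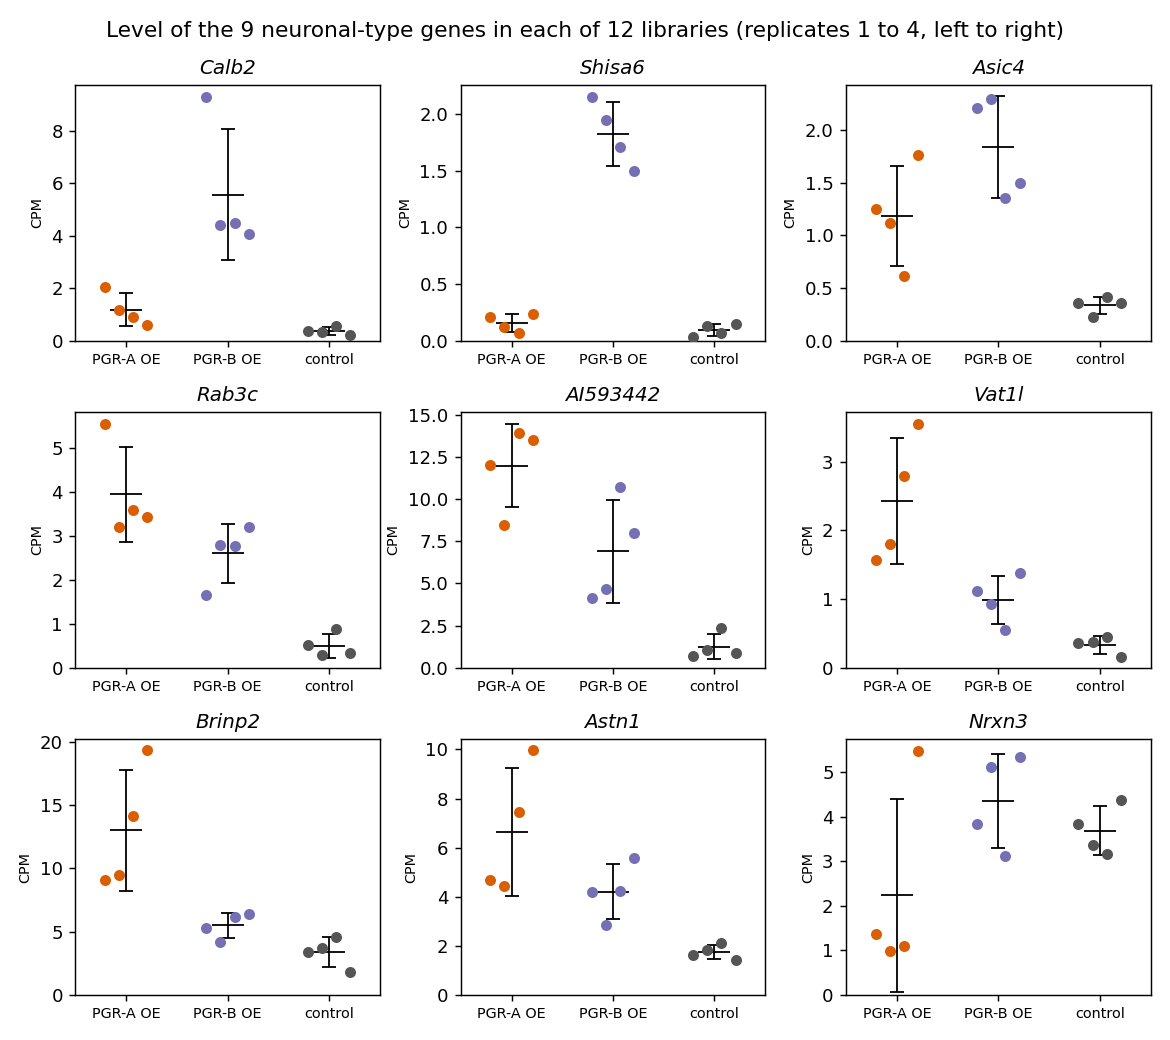
CPM of each of the 9 genes in the 12 libraries, in PGR-A OE, PGR-B OE and control, with replicates 1 to 4 from left to right, and the mean and SD over 4 libraries in black. Calb2 and Shisa6 are highest in PGR-B OE, Brinp2, Astn1, Vat1l, Rab3c and AI593442 have their highest means in PGR-A OE, and Nrxn3 has 1 high PGR-A OE library, at 5.46 CPM.

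Set against control, 6 of the 9 genes passed the threshold as higher in PGR-A OE and none as lower, at an adjusted p under 0.05 (edgeR quasi-likelihood test, Benjamini-Hochberg adjustment). Over all genes tested, 0.482% passed as higher and 0.174% as lower in that comparison, 0.655% in all. In PGR-B OE, 5 of the 9 passed as higher and none as lower, beside 0.283% of all genes as higher, 0.0257% as lower and 0.308% in all. Nothing is read from these counts, because the genes were chosen on these comparisons, which also share their control libraries. The median log2 change of the 9 genes was 1.92 in PGR-A OE and 2.37 in PGR-B OE, beside 0.001 and -0.005 over all genes tested. In each comparison 7 of the 9 genes did not overlap control, beside 10.6% of all genes in PGR-A OE and 5.67% in PGR-B OE.

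In PGR-A OE the members nearest the threshold were Asic4 inside, at an adjusted p of 0.0370, and Calb2 outside, at 0.117, both by edgeR's quasi-likelihood test. In PGR-B OE they were AI593442 inside, at an adjusted p of 0.0196, and Astn1 outside, at 0.118, again by edgeR. Rab3c, Asic4 and AI593442 were inside the threshold in both groups. Brinp2, Astn1 and Vat1l were inside it in PGR-A OE, and Calb2 and Shisa6 in PGR-B OE. The side of the threshold also turned on the tool: DESeq2 placed 7 genes inside in each overexpression group, with Calb2 added in PGR-A OE and Astn1 and Vat1l in PGR-B OE. By limma voom 5 were inside in each, Asic4 being outside in PGR-A OE.

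The direct comparison of PGR-B OE with PGR-A OE was not named in the choice of the genes, but it uses the same overexpression libraries, so it is not independent of that choice. Shisa6 passed the threshold, the only one of the 9 to do so, with a log2 change of 3.51 ± 0.37 (edgeR quasi-likelihood test, Benjamini-Hochberg adjusted p = 0.00204), higher in 4 of 4 PGR-B OE libraries than in any PGR-A OE library. Over all genes tested, 0.0578% passed as higher in PGR-B OE and 0.0578% as lower, 0.116% in all. Shisa6 also passed with each of the 8 libraries left out in turn, with no filter on low counts, and by DESeq2 and limma voom. Because Shisa6 entered the fit through PGR-B OE alone, it had to differ. Its call and the repeats of that call are given as a description and support nothing. Calb2, at 2.24 ± 0.40 and with no overlap between the groups, had an adjusted p of 0.0706 by edgeR, and passed by DESeq2 (adjusted p = 2.57e-05), by limma voom (adjusted p = 0.0436) and by edgeR without PGR-A OE replicate 1 (adjusted p = 0.0419).

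Brinp2 had a log2 change of -1.24 ± 0.29 in PGR-B OE versus PGR-A OE (edgeR, adjusted p = 0.209), and Vat1l one of -1.29 ± 0.35 (adjusted p = 0.320). For both genes every PGR-B OE library lay below every PGR-A OE library, and neither passed the threshold by edgeR. Brinp2 passed by DESeq2 (adjusted p = 0.00638). Rab3c, at -0.60 ± 0.31 (edgeR, adjusted p = 0.675), also did not overlap between the groups. In all, 5 of the 9 genes did not overlap between PGR-B OE and PGR-A OE, beside 3.85% of all genes. Unadjusted p was under 0.05 for 6 of the 9, beside 8.04% of all genes. By sign, 4 of the 9 were higher in PGR-B OE and 5 lower, with a median of -0.60, beside 51.2% of all genes higher and a median of 0.005. These counts include Shisa6, and nothing about the set is read from them.

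The other 4 genes overlapped between PGR-B OE and PGR-A OE, and none passed the threshold by any of the 3 tools. Asic4 had a log2 change of 0.63 ± 0.30, Astn1 of -0.66 ± 0.27 and AI593442 of -0.80 ± 0.36 (edgeR, adjusted p = 0.635, 0.575 and 0.619). For Nrxn3 the change was 0.96 ± 0.46 (edgeR, adjusted p = 0.636), and without PGR-A OE replicate 4 it was 1.91 (adjusted p = 0.00368).

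**Figure D3:**
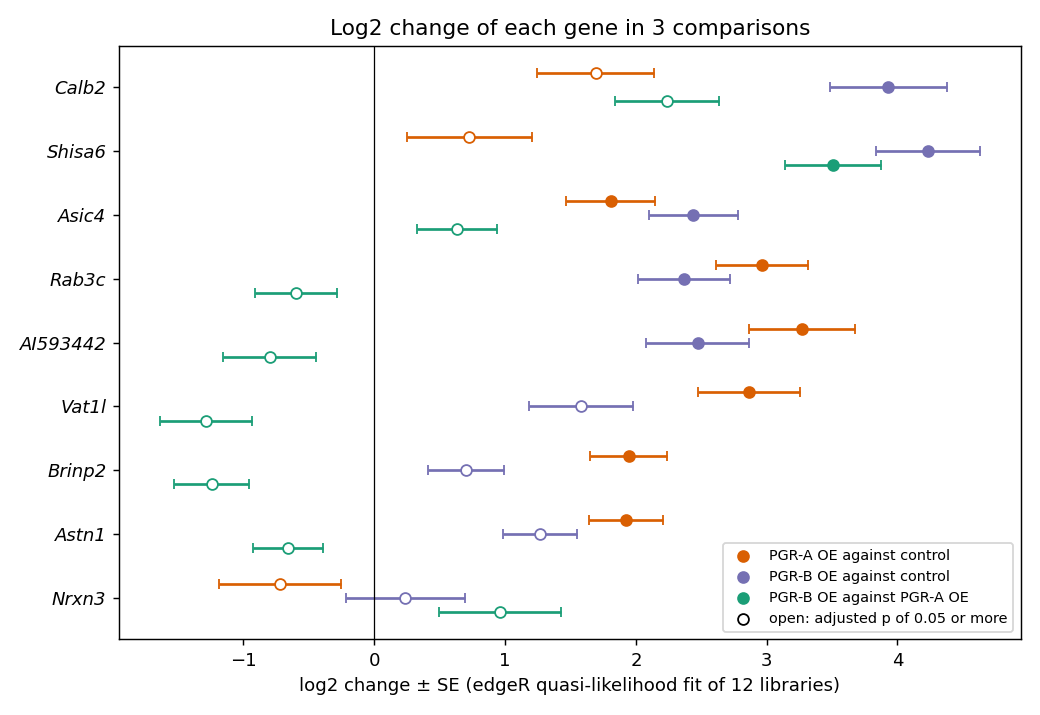
Log2 change with its SE for each of the 9 genes in PGR-A OE versus control, PGR-B OE versus control and PGR-B OE versus PGR-A OE, from 1 edgeR fit of 12 libraries, with filled points where the adjusted p was below 0.05. In the PGR-B OE versus PGR-A OE comparison the only filled point is Shisa6, at 3.51, and Brinp2 and Vat1l lie left of 0.

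Compared per kilobase of gene length, the order of the 9 genes differed by group. In PGR-A OE, Brinp2 was highest at 3.17 CPM per kb, followed by AI593442 at 2.05, Astn1 at 0.920, Calb2 at 0.821, Vat1l at 0.665, Rab3c at 0.454, Asic4 at 0.447, Nrxn3 at 0.236 and Shisa6 at 0.0208 CPM per kb. In PGR-B OE, Calb2 led at 3.89 CPM per kb, then Brinp2 at 1.34, AI593442 at 1.18, Asic4 at 0.695, Astn1 at 0.582, Nrxn3 at 0.460, Rab3c at 0.300, Vat1l at 0.272 and Shisa6 at 0.244 CPM per kb. In control the order ran from Brinp2 at 0.825 CPM per kb through Nrxn3 at 0.390, Calb2 at 0.253, Astn1 at 0.242, AI593442 at 0.212, Asic4 at 0.127, Vat1l at 0.0908 and Rab3c at 0.0578 to Shisa6 at 0.0124 CPM per kb. Most neighbours in these orders differed by less than the larger of their SDs. The gap exceeded it between AI593442 and Astn1 in PGR-A OE, and between Calb2 and Brinp2 and between Nrxn3 and Rab3c in PGR-B OE. In control it did so between Brinp2 and Nrxn3, Nrxn3 and Calb2, Asic4 and Vat1l, and Rab3c and Shisa6. Beside these levels, Pgr stood at 29.0 CPM per kb in PGR-A OE, 32.4 in PGR-B OE and 17.6 in control.

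The families of the genes were followed through lists that were drawn up by name. As a background for their counts, an unadjusted p under 0.05 by edgeR was given to 15.4% of all genes in PGR-A OE versus control, 9.28% in PGR-B OE versus control and 8.04% between the overexpression groups. RAB3 GTPases and their effectors, which tether and prime secretory vesicles, gave 0 calls among 16 other tested genes in every comparison by edgeR. At an unadjusted p under 0.05 there were 3 of the 16 in PGR-A OE versus control, 0 for PGR-B OE versus control and 1 between PGR-B OE and PGR-A OE. DESeq2 called only Rab3b, lower in PGR-B OE than in PGR-A OE, and limma voom called none. Rab3b, a relative of Rab3c, averaged 0.923 ± 0.139 CPM in PGR-A OE, 0.213 ± 0.188 CPM in PGR-B OE and 0.299 ± 0.168 CPM in control. The median log2 change of the 16 genes was 0.01 in PGR-A OE and -0.01 in PGR-B OE, where Rab3c stood at 2.97 and 2.37. The wider machinery of vesicle fusion gave 0 calls by edgeR and limma voom among 21 tested genes, with 6, 1 and 3 at an unadjusted p under 0.05 in the same order of comparisons, and DESeq2 called Unc13b as higher in PGR-A OE than in control and Sv2b as higher in PGR-B OE than in PGR-A OE.

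Among the SHISA proteins, AMPA receptor subunits and other auxiliary subunits, 1 of 12 other tested genes passed the threshold by edgeR. Gsg1l, an AMPA receptor auxiliary subunit, was at 0.903, 0.812, 0.578 and 5.14 CPM in PGR-A OE, at 1.06, 0.415, 0.548 and 0.704 CPM in PGR-B OE and at 0.0645, 0.0954, 0.0316 and 0.149 CPM in control. Control held 1 to 5 reads of Gsg1l per library. Because Gsg1l met the filter on low counts through the overexpression groups alone, its calls against control are given as a description. Both overexpression groups lay clear of control. Gsg1l rose in PGR-A OE versus control by a log2 change of 4.38 ± 0.82 (edgeR quasi-likelihood test, Benjamini-Hochberg adjusted p = 0.0343). Replicate 4 was by far the highest PGR-A OE library, and without it the change was 3.10 (adjusted p = 0.0108). With each of 8 libraries left out in turn Gsg1l passed 3 times, at edgeR adjusted p from 0.0108 to 0.133, and was lost without any of the 4 control libraries or without PGR-A OE replicate 1 (0.0501). In PGR-B OE versus control its change was 2.94 ± 0.85 (edgeR, adjusted p = 0.268), which DESeq2 called and limma voom did not. The other 11 genes of the list gave no call by any of the 3 tools. At an unadjusted p under 0.05 by edgeR there were 3 of the 12 in PGR-A OE versus control: Gsg1l, Shisa2 and Olfm1. There was 1 in PGR-B OE versus control, Gsg1l, and 2 between the overexpression groups, Gria1 and Gsg1l. In PGR-A OE versus control the log2 change was 1.54 ± 0.52 for Shisa2 and -1.44 ± 0.49 for Olfm1 (edgeR, adjusted p = 0.199 and 0.206), both with overlap.

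The remaining families gave no call by edgeR or limma voom, and an unadjusted p under 0.05 by edgeR for 2 of 19 genes in PGR-A OE versus control, 1 in PGR-B OE versus control and 2 between PGR-B OE and PGR-A OE. Beside Calb2, the 2 relatives tested included Calb1, calbindin, at 0.621 ± 0.218 CPM in PGR-A OE, 1.54 ± 1.80 CPM in PGR-B OE and 0.327 ± 0.114 CPM in control. Its log2 change in PGR-B OE versus control was 2.22 ± 0.72 (edgeR, adjusted p = 0.352), with an SD above the mean. Asic2, the lowest in p of 3 other acid-sensing channel genes, averaged 19.1 ± 6.60 CPM in PGR-A OE, 28.0 ± 7.44 CPM in PGR-B OE and 34.2 ± 6.86 CPM in control. For Asic2 the log2 change in PGR-A OE versus control was -0.84 ± 0.26 (edgeR, adjusted p = 0.162), called lower by DESeq2, where Asic4 was at 1.81. The 3 other BRINP and astrotactin genes, the 10 other neurexins and neurexin partners and the 1 other VAT1 gene had median log2 changes of 0.37, 0.20 and 0.00 in PGR-A OE and of -0.15, 0.02 and -0.04 in PGR-B OE, none of them called by any of the 3 tools.

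**Figure D4:**
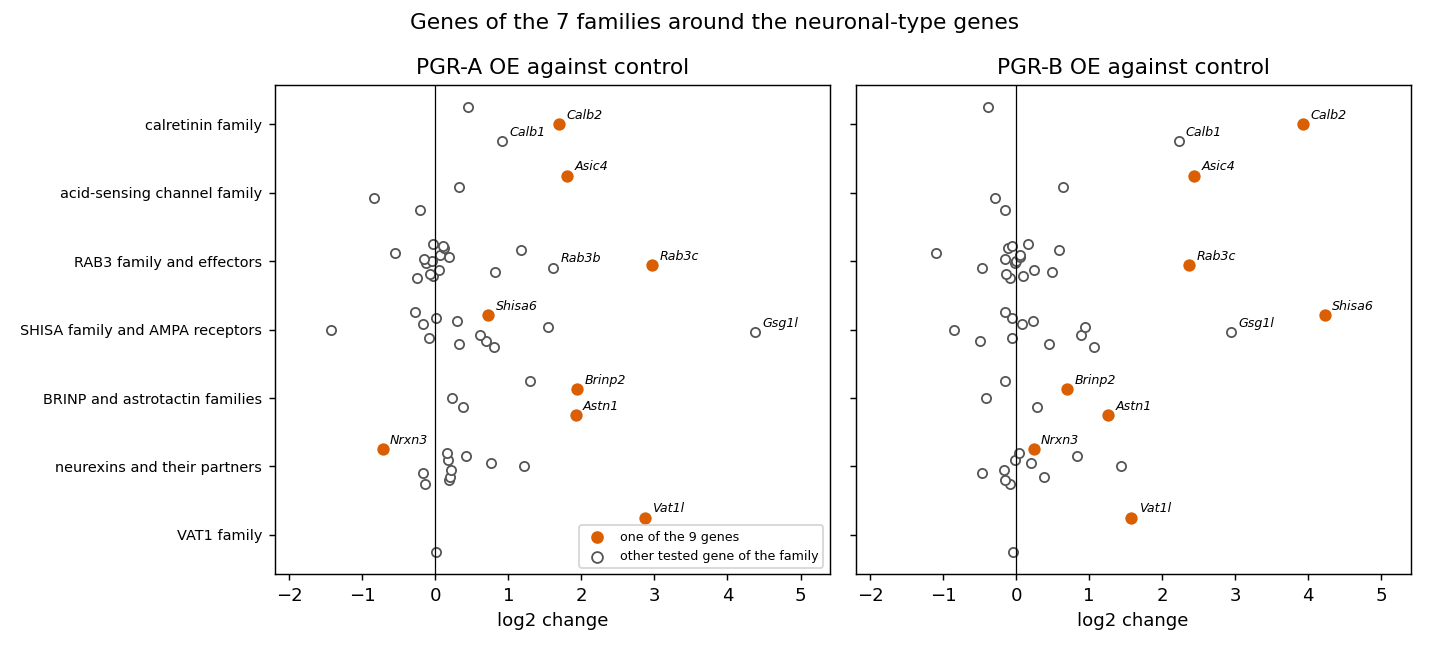
Log2 change against control of the 9 genes' families, PGR-A OE in the left panel and PGR-B OE in the right, with the genes described here filled and their other tested relatives open. AI593442 has no family list and is not drawn. Most open points lie near 0, and Gsg1l at 4.38 in PGR-A OE lies farthest right among them.

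Markers of cells that could carry these transcripts were set beside them. Of 11 tested pan-neuronal genes, none was called in any comparison by edgeR, DESeq2 or limma voom, and an unadjusted p under 0.05 was seen for 2 in PGR-A OE versus control, 0 for PGR-B OE versus control and 1 between the overexpression groups. Their list's summed level was 41.8 to 48.5 CPM in PGR-A OE, 36.9 to 52.9 CPM in PGR-B OE and 37.9 to 48.0 CPM in control. These sums overlapped between all 3 groups. None of the 18 genes of the list was at 0 in all 12 libraries. The highest was Uchl1, a neuronal ubiquitin hydrolase, at 12.8 ± 1.84 CPM in PGR-A OE, 11.9 ± 2.86 CPM in PGR-B OE and 12.2 ± 1.89 CPM in control. Tubb3, neuronal tubulin, stayed between 0.129 and 0.903 CPM. Single genes of the list differed in direction. Rbfox3, the neuronal nuclear marker NeuN, averaged 3.95 ± 1.74 CPM in PGR-A OE, 1.65 ± 0.459 CPM in PGR-B OE and 1.49 ± 1.38 CPM in control. Its log2 change in PGR-A OE versus control was 1.41 ± 0.51 (edgeR, adjusted p = 0.225), with overlap, and in PGR-B OE versus PGR-A OE it was -1.26 ± 0.51 (adjusted p = 0.565), with none. Celf4, an RNA-binding protein of neurons, averaged 4.26 ± 0.656 CPM in PGR-A OE, 5.51 ± 1.38 CPM in PGR-B OE and 6.41 ± 1.18 CPM in control. Its log2 change in PGR-A OE versus control was -0.59 ± 0.20 (edgeR, adjusted p = 0.193), with no overlap. The part of neuronal content in the levels of the 9 genes was not tested.

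Npy, neuropeptide Y of sympathetic nerves and of some other cells, was the only gene called among 6 tested autonomic and sensory nerve genes by edgeR. It averaged 69.3 ± 27.6 CPM in PGR-A OE, 306 ± 65.3 CPM in PGR-B OE and 70.8 ± 14.1 CPM in control. Npy rose in PGR-B OE by a log2 change of 2.11 ± 0.29 against control (edgeR quasi-likelihood test, Benjamini-Hochberg adjusted p = 0.00775) and of 2.14 against PGR-A OE (adjusted p = 0.0126). The second of these calls was lost without PGR-A OE replicate 1 (edgeR adjusted p = 0.0652) or PGR-B OE replicate 1 (0.0581), under the replicate block (0.0616) and with only the 8 libraries compared (0.0599). In that order of groups it was like Shisa6, with PGR-B OE clear of the other groups and those overlapping. The other 20 genes of the list summed to 7.58 to 16.1 CPM in PGR-A OE, 11.7 to 34.3 CPM in PGR-B OE and 8.55 to 21.7 CPM in control, with overlap throughout. Th, the first enzyme of catecholamine synthesis, was at 0 in 10 of 12 libraries. An unadjusted p under 0.05 was given to 0 of the 6 tested genes in PGR-A OE versus control, 2 for PGR-B OE versus control and 2 between PGR-B OE and PGR-A OE, Npy and Ddc each time. Ddc, aromatic amino acid decarboxylase, averaged 1.08 ± 0.277 CPM in PGR-A OE, 2.67 ± 0.696 CPM in PGR-B OE and 1.52 ± 0.349 CPM in control. Its log2 change was 0.81 ± 0.25 in PGR-B OE versus control (edgeR, adjusted p = 0.317) and 1.30 ± 0.25 in PGR-B OE versus PGR-A OE (adjusted p = 0.112), with no overlap in either, and DESeq2 called the second.

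Glial and Schwann cell markers summed to 302.7 to 409.7 CPM in PGR-A OE, 319 to 355.5 CPM in PGR-B OE and 335 to 366 CPM in control, again with overlap. Of 8 tested glial genes none was called by edgeR or limma voom, and 2 had an unadjusted p under 0.05 in every comparison. Prx, periaxin of myelinating Schwann cells, averaged 8.32 ± 0.685 CPM in PGR-A OE, 6.94 ± 0.967 CPM in PGR-B OE and 5.65 ± 0.271 CPM in control. Its log2 change in PGR-A OE versus control was 0.56 ± 0.12 (edgeR, adjusted p = 0.0573), with no overlap, and DESeq2 called it. Gfap, a filament protein of astrocytes and some Schwann cells, was at 0.876 ± 0.0775 CPM in PGR-A OE, 0.367 ± 0.189 CPM in PGR-B OE and 0.467 ± 0.154 CPM in control. PGR-A OE lay clear of both other groups for Gfap, at a log2 change versus control of 0.90 ± 0.32 (edgeR, adjusted p = 0.223). The part of glial content in the levels of the 9 genes was not tested.

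Mesothelial markers, of interest for Calb2, summed to 690 to 930 CPM in PGR-A OE, 794 to 1331 CPM in PGR-B OE and 680 to 1279 CPM in control. Of 11 tested mesothelial genes none was called by any of the 3 tools in any comparison, and none had an unadjusted p under 0.05. The REST complex, the repressor of neuronal genes, gave no call among 10 tested genes by any of the 3 tools, and 1 had an unadjusted p under 0.05, in PGR-A OE versus control.

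Smooth muscle markers were highest in PGR-A OE, the group with the highest mean Brinp2, Astn1, Vat1l, Rab3c and AI593442. All 12 had a positive log2 change in PGR-A OE versus control, beside 50.1% of all genes, with a median of 0.30. In that comparison Brinp2, Astn1 and Vat1l stood at 1.94, 1.92 and 2.86. Of them 5 had an unadjusted p under 0.05, none was called by edgeR or limma voom, and DESeq2 called Des, Myh11 and Synm. Their summed level was 20342, 20860, 23569 and 27530 CPM in PGR-A OE replicates 1 to 4, 14449 to 19406 CPM in PGR-B OE and 14953 to 19639 CPM in control. PGR-A OE lay clear of both other groups, as it did for Brinp2, Vat1l and, narrowly, Rab3c. Within PGR-A OE replicates 3 and 4 were highest for the markers and for Brinp2, Astn1, Vat1l and AI593442. Rab3c and Calb2 were instead highest in replicate 1. Asic4, Shisa6 and Nrxn3 were highest in replicate 4, with replicate 3 below replicate 1. Replicates 3 and 4 were also highest for the fibroblast markers below, and replicate 4 is the library that stood apart on principal component 1. In PGR-B OE the smooth muscle sum overlapped control, as Brinp2 did, while Astn1, Vat1l, Rab3c and AI593442 lay clear of control. The part of the smooth muscle content in the changes of these 3 genes was not tested.

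The summed fibroblast markers lay clear above control in both overexpression groups, through Col1a1, Col1a2 and Col3a1, which make up most of the sum. The sum came to 43309, 40714, 46175 and 53014 CPM in PGR-A OE replicates 1 to 4. It was 41682 to 52226 CPM in PGR-B OE and 36578 to 38565 CPM in control. Of the 7 genes, all tested, none was called by edgeR or limma voom, and the median log2 change was 0.02 in PGR-A OE and 0.03 in PGR-B OE. An unadjusted p under 0.05 was given to 3 in PGR-A OE versus control, 4 for PGR-B OE versus control and 1 between the overexpression groups. DESeq2 called Col1a1, Col1a2 and Col3a1, the chains of the main fibrillar collagens, as higher in both overexpression groups, and Fn1 (fibronectin) as lower in PGR-B OE. The rest of the list did not rise with the collagens. Dcn averaged 1336 CPM in PGR-A OE, 1384 CPM in PGR-B OE and 1355 CPM in control. In the same order of groups Lum averaged 481, 433 and 476 CPM, Pdgfra 204, 210 and 219 CPM, and Fn1 2259, 1638 and 2940 CPM. The part of fibroblast content in the levels of the 9 genes was not tested. The summed levels of the neuroendocrine, fetal neural, Cajal-like interstitial, endothelial, epithelial, decidual and leukocyte lists overlapped between each overexpression group and control. The decidual sum was 5200 CPM in control replicate 4 and 275 to 555 CPM in the other control libraries. PGR-A OE held 99.3 to 1377 CPM. PGR-B OE, at 820 to 1079 CPM, overlapped control through replicate 4 alone. The part of decidual content in the levels of the 9 genes was not tested.

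**Figure D5:**
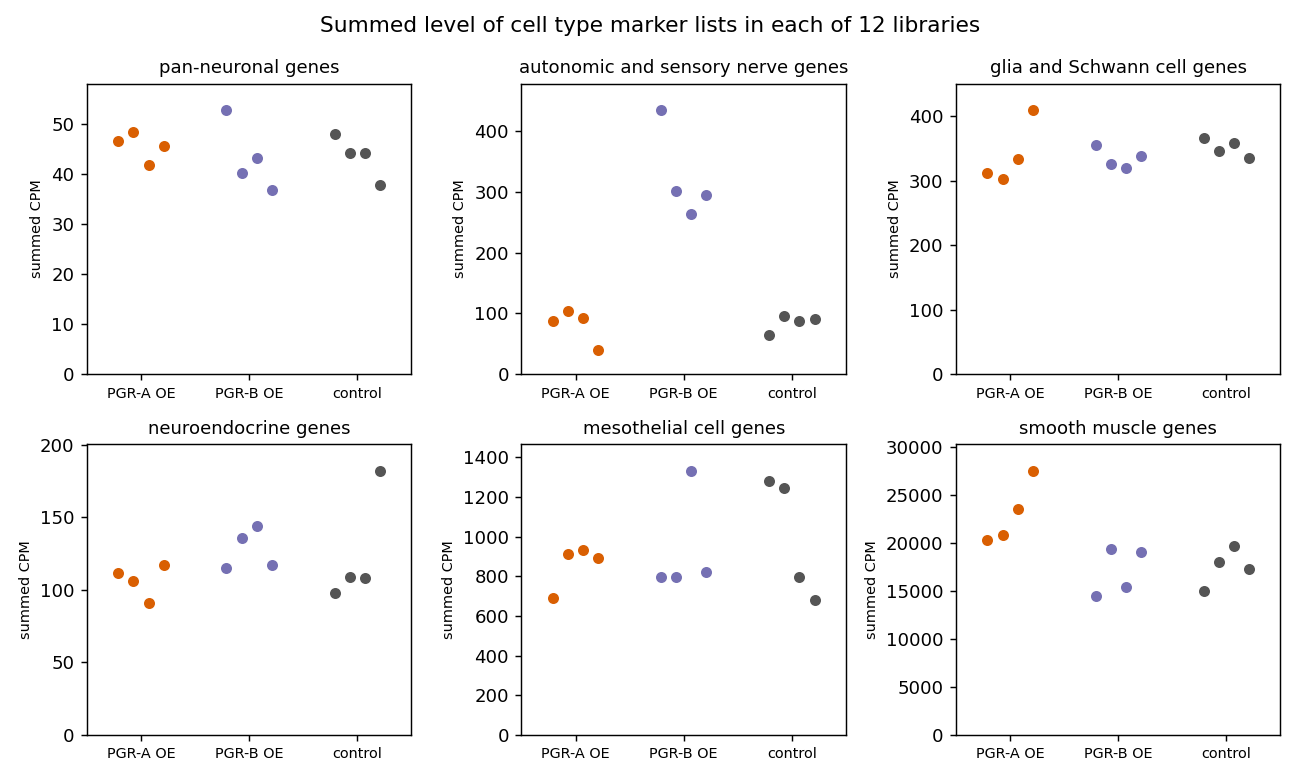
Summed CPM of 6 marker lists in each library, PGR-A OE, PGR-B OE and control from left to right. The pan-neuronal, glial and mesothelial sums overlap between groups, the nerve list is high in PGR-B OE through Npy, and the smooth muscle sum is highest in PGR-A OE, at 20342 to 27530 CPM.

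Genes next to the 9 on the chromosome were followed too. Of the 16 nearest tested genes on either side that are not members of the set, edgeR called none in any comparison; 4 had an unadjusted p under 0.05 in PGR-A OE versus control, 2 for PGR-B OE versus control and 0 between the overexpression groups. Their median log2 changes were -0.03, 0.03 and 0.07 in these 3 comparisons, with ranges of -5.00 to 2.80, -2.44 to 2.51 and -0.28 to 2.56. The lowest value against control in each group was that of Dnah9, 43.2 kb from Shisa6. Dnah9 averaged 0.149 CPM in PGR-A OE, 0.906 CPM in PGR-B OE and 4.94 CPM in control. Its log2 change against control was -5.00 ± 1.62 in PGR-A OE and -2.44 ± 1.34 in PGR-B OE (edgeR, adjusted p = 0.183 and 0.614). DESeq2 called Pappa2 in both overexpression groups and Chpf, 225 bases from Asic4, in PGR-B OE, and limma voom called none. Pappa2, a metalloproteinase that cleaves insulin-like growth factor binding proteins, lies 19.9 kb past the end of Astn1. Pappa2 was at 0.437, 0.631, 0.418 and 3.17 CPM in PGR-A OE, at 1.15, 0.638, 1.19 and 0.857 CPM in PGR-B OE and at 0.161, 0.127, 0.284 and 0.0893 CPM in control. Like Astn1 it lay above control in all 8 overexpression libraries, with log2 changes of 2.80 ± 0.70 in PGR-A OE and 2.51 ± 0.71 in PGR-B OE (edgeR quasi-likelihood test, Benjamini-Hochberg adjusted p = 0.104 and 0.253). Without PGR-A OE replicate 4 the first was 1.57 (adjusted p = 0.127), and with only the 8 libraries compared Pappa2 passed in PGR-B OE versus control (adjusted p = 0.0319). None of the 4 control libraries reached the filter level for Pappa2, so its calls against control are likewise given as a description.

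Among themselves, the 9 genes fell into few close pairs. Likeness was measured as the root mean square difference between the centred log2(CPM + 0.5) profiles of a pair over the 12 libraries, so that 0 means the same profile on that scale. The added 0.5 CPM shrinks the changes of genes near or below that level, so a small value does not mean equal fold changes. The closest pairs were Brinp2 with Vat1l at 0.264, Astn1 with Vat1l at 0.265 and Brinp2 with Astn1 at 0.294, although Vat1l is on another chromosome than the neighbours Brinp2 and Astn1. Vat1l averaged only 0.332 CPM in control. In PGR-A OE versus control edgeR gave it a log2 change of 2.86, beside 1.92 for Astn1 and 1.94 for Brinp2. Rab3c with AI593442 came next at 0.471. Nrxn3 and AI593442 were farthest apart, at 1.683.

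Genes outside the set were compared only if they averaged at least 1 CPM, a limit not put on the 9 genes. Among those outside genes, the mean profile of the 9 genes was nearest to that of Kcnip2, at 0.201. Kcnip2, a calcium-binding subunit of voltage-gated potassium channels, was at 8.90 ± 0.846 CPM in PGR-A OE, 9.96 ± 0.620 CPM in PGR-B OE and 3.96 ± 1.11 CPM in control. Also near were Lct (lactase) at 0.277, Greb1l at 0.287 and Col4a4 (a chain of basement membrane collagen) at 0.297. Singly, Shisa6 was nearest to L3mbtl4 at 0.247, which averaged 4.40 ± 0.324 CPM in PGR-A OE, 13.9 ± 2.05 CPM in PGR-B OE and 3.61 ± 0.910 CPM in control. Yet Shisa6, at 0.0929 CPM in control, lies far below the added 0.5 CPM. Its log2 change in PGR-B OE versus control was 4.23 by edgeR, beside 1.94 for L3mbtl4. Nrxn3 was nearest to Abi3bp at 0.371, Rab3c to Casq2, the calcium store protein calsequestrin of muscle, at 0.381, Asic4 to Greb1l at 0.277 and Calb2 to Shisa6, itself of the set, at 0.522. Casq2 averaged 87.4 ± 18.0 CPM in PGR-A OE, 43.4 ± 6.45 CPM in PGR-B OE and 21.02 ± 7.92 CPM in control, the same order of groups as Rab3c. By edgeR the log2 change in PGR-A OE versus control was 2.97 for Rab3c and 2.06 for Casq2. In PGR-B OE versus control it was 2.44 for Asic4 and 1.32 for Greb1l.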

How the data were processed

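RNA from uterine tissue was read as paired ends of 75 bp. The values deposited by the authors are raw read counts per gene, in whole numbers, in a single table of the 12 libraries. The submitters' processing notes name STAR 2.7.0f, Bowtie2 2.2.5, Subread 1.6.4, DESeq2 and featureCounts, and the builds GRCm38 and mm10. Not given in the sources used here are what each tool did, the gene annotation, the strand setting and the rule for reads that fit several genes. Groups and replicate numbers came from the sample titles.

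From the deposited counts, edgeR 4.0.16 in R 4.3.3 was run with filterByExpr, TMM scaling and 1 robust quasi-likelihood fit of 12 libraries, which gives all groups a common spread. Adjusted p-values are Benjamini-Hochberg values over the 15561 tested genes, and the threshold was 0.05. CPM uses TMM-scaled library sizes, and CPM per kb the gene length in the table. The steps were tested on simulated data. Alternatives were DESeq2 1.42.0, limma 3.58.1 (voom), RLE scaling, no filter on low counts, only the 8 libraries compared, the replicate number as a block, and each library left out. The 9 genes, the gene lists and the tests were chosen with earlier results of these data known. Named besides the 9 genes were Pgr, family genes past the threshold, up to 4 genes of a list by lowest unadjusted p, nearest neighbours on the chromosome, and genes of nearest profile, some of which are not reported here; the Uchl1, Th and Tubb3 levels were picked after their values were seen. Positions come from the GENCODE annotation of GRCm38 and promoters from RefSeq (GRCm38.p6).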

Additional observations from a re-analysis of the deposited data

Results flagged for a closer look

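Among the 27 combinations of gene and group, 3 held a library far from the other 3 of its group, by Dixon's criterion for 4 samples. Chance alone sets off about 1 in 20 such groups. Calb2 in PGR-B OE replicate 1 stood at 9.29 CPM, against 4.07 to 4.48 CPM in the other PGR-B OE libraries. Rab3c in PGR-A OE replicate 1 stood at 5.56 CPM, against 3.22 to 3.60 CPM in the other PGR-A OE libraries. Nrxn3 in PGR-A OE replicate 4 stood at 5.46 CPM, against 0.992 to 1.37 CPM in the other PGR-A OE libraries, and that library also stood apart on the first principal component.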

How the results depend on the processing

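Over 377 alternatives for single genes of the 9, 348 kept direction and side of the threshold, 10 newly passed it, 19 lost it and none reversed. Of the 9 genes, 6 passed in PGR-A OE versus control, against 7 by DESeq2 (Calb2 added), 5 by limma voom, 5 under the replicate block (Asic4 lost in both) and 4 to 6 with a library left out. Asic4 was inside in 1 of those 8 fits, without PGR-A OE replicate 3, and Brinp2 was outside without control replicate 1. Nrxn3 was inside, as lower, without PGR-A OE replicate 4. With only the 8 libraries compared, Asic4 and Brinp2 in PGR-A OE and AI593442 in PGR-B OE did not pass versus control. In PGR-B OE versus control 5 passed, against 7 by DESeq2 (Astn1 and Vat1l added) and 3 to 5 with a library left out. Rab3c was outside without control replicate 1 or 2, and AI593442 without control replicate 1, 2 or 4 or PGR-B OE replicate 4. In PGR-B OE versus PGR-A OE 1 passed, against 3 by DESeq2, 2 by limma voom, and 1 to 2 with a library left out, the second being Calb2 without PGR-A OE replicate 1 and Nrxn3 without PGR-A OE replicate 4. With the replicate number as a block that count was 2. Deviations of same-numbered libraries from their group means had correlations from -0.311 to 0.254. These values cannot tell whether such libraries share more than a number. Over all genes the calls were 102 in PGR-A OE versus control (DESeq2 575, replicate block 69, 8 libraries 63, 32 to 99 with a library left out), 48 in PGR-B OE versus control (DESeq2 216, 22 to 48 with a library left out) and 18 in PGR-B OE versus PGR-A OE (DESeq2 125, replicate block 11, 8 libraries 10, 11 to 31 with a library left out). The call of Npy in PGR-B OE versus PGR-A OE was lost under the replicate block (adjusted p = 0.0616) and with only the 8 libraries compared (0.0599). The small log2 change of Npy in PGR-A OE versus control ran from -0.19 to 0.22 with a library left out, and was positive without control replicate 2 (0.09) and without PGR-A OE replicate 4 (0.22). That of Pappa2 in PGR-B OE versus PGR-A OE was positive by limma voom (0.24), under the replicate block (0.046) and without PGR-A OE replicate 4 (0.95), with a range of -0.56 to 0.95 over the fits with a library left out. The cause was not tested. A few reads per library limit Shisa6 in PGR-A OE and control.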
